A study of Homo sapiens with 18 samples.

Results

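The genes described here are the 6 CDK inhibitors of the human genome other than p21: CDKN1B (p27) and CDKN1C (p57) of the CIP/KIP family, and CDKN2A (p16 and ARF), CDKN2B (p15), CDKN2C (p18) and CDKN2D (p19) of the INK4 family. They are taken by symbol from the 23399 genes of the table. The cells were U2OS-MycER, a human osteosarcoma line transduced with a retrovirus for MycER, Myc fused to the hormone-binding part of the estrogen receptor, which acts on genes once 4-hydroxytamoxifen (OHT) is added. All 8 groups carried MycER and were transfected with siRNA, either against RAD21, a subunit of the cohesin ring (siRAD21), or against Renilla luciferase, which these cells lack (siCtrl). Cells received 400 nM OHT or its solvent ethanol, and RNA was taken at 24 and 48 h. The siCtrl and siCtrl OHT groups at 48 h have 3 libraries each and the other 6 groups have 2, which makes 18 libraries.

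Levels are given as eRPKM (RPKM over exons), which scale the reads on the exons of a gene by exon length and by the reads of the library, so that levels of different genes can be compared. Libraries held 9647501 to 12678599 reads. Differences were tested with limma on log2(eRPKM + 0.5) in 1 fit of all groups, over the 14993 genes with a mean of at least 1 eRPKM, with Benjamini-Hochberg adjustment in each comparison. A gene was called, and is said to rise or fall, when its adjusted p was below 0.05 and its log2 fold change was past 0.5 either way. Of the 6 members, 5 were tested and CDKN2A was too low. CDKN2B passed the limit of 1 eRPKM, at a mean of 1.08, through its level in the siCtrl libraries at 48 h, and over the other 15 libraries its mean was 0.796. Its falls against that group, its rise into it, differences of effects that use it, and counts of members that include any of these, are therefore descriptions. RAD21 mRNA was at 26% of the siCtrl level at 24 h and 12.1% at 48 h. Removal of PCR duplicates, described below, holds back the higher siCtrl levels (70.7 and 93.1 eRPKM) more, so these percentages are overstated. The siRAD21 OHT libraries at 48 h differed by no more than sampling noise (chi-square per gene 0.982, against 1.04 to 3.94 for other pairs), so their means are given as those of 1 sample, with no SD. In the fit they entered as 2 libraries, and entering their average as 1 changed no call of a member. The study's methods speak of biological replicates, but the labels do not say which libraries came from separate cultures, so p-values measure the spread between these libraries. The lineage markers fitted the label in part: 5 of 8 osteoblast markers, among them SPARC and COL1A1, had a median of at least 1 eRPKM, while SP7, BGLAP and COL1A2 did not, and blood markers summed to at most 0.322 eRPKM, with HBB at 0 in all 18 libraries. All 3 epithelial markers also had a median of at least 1 eRPKM (EPCAM 5.94, CDH1 1.22, KRT5 1.12), and 0 of 2 endothelial markers did.

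Progression from G1 into S phase needs cyclin D with CDK4 or CDK6, and then cyclin E or A with CDK2, which phosphorylate RB1 and its relatives and free E2F. INK4 proteins bind CDK4 and CDK6 themselves and keep cyclin D away, whereas CIP/KIP proteins clamp onto whole cyclin-CDK complexes, above all those of CDK2. CDKN2A also encodes ARF from another first exon, which stabilises p53. Myc is known to act against this brake: with its partner ZBTB17 (MIZ1) it represses CDKN2B, and it is known to lower p27 by several routes. U2OS cells are known to carry a silenced CDKN2A.

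Promoters are shown because most of these genes moved together with OHT, and because Myc with MAX binds the letters CACGTG, the canonical E-box. RefSeq promoter windows, from 250 bases before to 50 bases after a transcription start, were found for 5 of the 6 members (8 windows; CDKN1C had no entry). The table gives build GRCh38.p14, and each window matched GRCh37 exactly at 1 place, the build given here. Capitals mark, on either strand, the E-box CACGTG, the GC box GGGCGG read by SP1 (CCGCCC on the other strand) and the CCAAT box read by NF-Y (ATTGG on the other strand). In the windows shown no motif overlapped another. Sequences run 5′ to 3′ along the gene.
CDKN2C, upstream start (chr1:51426167-51426466, plus strand): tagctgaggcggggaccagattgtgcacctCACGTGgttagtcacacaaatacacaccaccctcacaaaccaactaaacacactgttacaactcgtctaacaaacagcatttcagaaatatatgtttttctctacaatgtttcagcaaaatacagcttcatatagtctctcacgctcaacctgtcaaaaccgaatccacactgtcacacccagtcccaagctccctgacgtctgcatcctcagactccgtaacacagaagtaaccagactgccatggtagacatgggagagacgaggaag
CDKN2C, downstream start (chr1:51435667-51435966, plus strand): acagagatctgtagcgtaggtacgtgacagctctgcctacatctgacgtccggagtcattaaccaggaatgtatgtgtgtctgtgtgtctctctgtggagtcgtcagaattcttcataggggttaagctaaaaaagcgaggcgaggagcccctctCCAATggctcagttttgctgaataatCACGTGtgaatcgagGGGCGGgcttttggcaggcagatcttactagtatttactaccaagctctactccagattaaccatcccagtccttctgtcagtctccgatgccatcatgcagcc
CDKN2B (chr9:22009255-22009554, minus strand): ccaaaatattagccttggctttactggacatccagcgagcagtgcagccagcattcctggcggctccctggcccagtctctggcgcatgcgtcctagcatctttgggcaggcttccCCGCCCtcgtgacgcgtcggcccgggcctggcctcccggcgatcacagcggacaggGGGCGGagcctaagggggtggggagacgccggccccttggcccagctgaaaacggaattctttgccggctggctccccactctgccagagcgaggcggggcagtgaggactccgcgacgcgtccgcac
CDKN2D (chr19:10679606-10679905, minus strand): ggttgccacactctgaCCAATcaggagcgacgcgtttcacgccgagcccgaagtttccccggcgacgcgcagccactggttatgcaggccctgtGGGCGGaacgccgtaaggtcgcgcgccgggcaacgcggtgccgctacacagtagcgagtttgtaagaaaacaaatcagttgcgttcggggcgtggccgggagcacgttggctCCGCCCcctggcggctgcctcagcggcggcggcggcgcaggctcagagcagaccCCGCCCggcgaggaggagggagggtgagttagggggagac
CDKN1B (chr12:12870052-12870351, plus strand): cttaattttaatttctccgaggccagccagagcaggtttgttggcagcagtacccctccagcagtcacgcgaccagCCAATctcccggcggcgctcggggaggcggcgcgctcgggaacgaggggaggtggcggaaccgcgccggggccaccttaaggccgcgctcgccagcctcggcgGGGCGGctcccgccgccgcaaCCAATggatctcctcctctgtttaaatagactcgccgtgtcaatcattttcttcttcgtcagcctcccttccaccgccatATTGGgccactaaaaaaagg
The E-box was present in 2 of the 3 CDKN2C windows, with its first base 220 and 69 bases before the start, and in none of the windows of CDKN1B, CDKN2A, CDKN2B and CDKN2D. Of all 35116 promoter windows, 7.26% held an E-box, 45% a GC box and 34.6% a CCAAT box. GC boxes were found in at least 1 window of each of the 5 genes, with 2 for CDKN2B and 3 for CDKN2D, and the middle window of CDKN2C, which is not printed, held 6. The matches describe letters only, and binding of Myc was not analysed here.

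CDKN1B was the most abundant of the 6 mRNAs in every group, with group means of 30.4 to 47.5 eRPKM. CDKN2C followed with 12.1 to 35.4, CDKN2D with 4.97 to 12.2, CDKN1C with 4.12 to 9.7 and CDKN2B with 0.364 to 2.5 eRPKM. CDKN2D was above CDKN1C in every group mean. For CDKN1B these values rest on 696 to 1455 reads per library and for CDKN2B on only 14 to 125. Removal of PCR duplicates leaves at most 2 reads of single-end data at each exon base, and CDKN1B stood at 14.4 to 30.1% of that limit and CDKN2C at 5.36 to 22.4%, so their differences are slightly understated. The plot of all libraries by group shows the scale of each gene.

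CDKN2A was close to absent. It had 15 reads over all 18 libraries, with 0 to 3 in a library and 0 in 8 libraries, which is at most 0.134 eRPKM. A count of 0 allows up to 3 reads, which corresponds to 0.114 to 0.15 eRPKM depending on the library, so every library was at or under that limit and no difference between groups could be detected at this depth. In the annotation CDKN2A shares 593 exon bases with the antisense RNA CDKN2B-AS1, the libraries did not mark strand, and reads on these bases could belong to either gene. CDKN2A lies on chromosome 9 (GRCh37, chr9:21967751-21995300, minus strand), next to CDKN2B (chr9:22002902-22009304, minus strand).

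The first question is what MycER activation alone did to these inhibitors. At 48 h all 5 members tested fell with OHT in siCtrl cells, where 10.1% of all genes were called lower. CDKN2B was tested through its level in these siCtrl libraries, so the count of 5 and the values over the 5 are descriptions. Every OHT library was below every control library for each of the 5, as it was for 28.8% of all genes. The median log2 fold change was -0.90 for the 5 members and -0.01 for all genes tested. In a bulk measurement, fewer cells that express a gene and less RNA per cell cannot be told apart.

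CDKN2C, the INK4 protein p18, had 24.9, 27.4 and 28.2 eRPKM in the siCtrl libraries at 48 h and 12.3, 11.6 and 14.2 with OHT. Every OHT library was far below every control, at 47.3% of the control mean, a log2 fold change of -1.05 (95% confidence interval -1.24 to -0.87, limma, adjusted p = 2.23e-07). This was the largest log2 fold change of a member with OHT in siCtrl cells, although CDKN2B was at a lower percentage of control. CDKN2C lies on chromosome 1 (chr1:51426417-51440306, plus strand) and shares 617 exon bases with an opposite-strand gene, ENSG00000290102, that the table does not list.

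CDKN2B, encoding p15, a target of TGF-beta signalling, had 2.42, 2.18 and 2.91 eRPKM in siCtrl and 1.30, 0.859 and 1.12 with OHT. The groups were apart, with OHT at 43.6% of control (-0.92, interval -1.20 to -0.63, limma, adjusted p = 5.06e-05). Since its level is low, the 0.5 added to each value holds this estimate back, and with 0.1 in its place it was -1.13. The control group is the one through which CDKN2B was tested at all. Without a limit on low values the fall was again -0.92 (limma, adjusted p = 5.43e-05).

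CDKN2D, encoding p19, measured 10.1, 12.5 and 13.9 eRPKM in siCtrl and 6.79, 5.46 and 6.49 with OHT. It fell to 51.4% of control (-0.90, interval -1.15 to -0.65, limma, adjusted p = 1.78e-05). CDKN2D lies on chromosome 19 (chr19:10677136-10679735, minus strand).

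Of the CIP/KIP genes, CDKN1C, an imprinted gene on chromosome 11 (chr11:2904443-2907005, minus strand), measured 8.30, 7.61 and 7.88 eRPKM in siCtrl and 3.74, 4.89 and 3.73 with OHT. It fell to 52% of control (-0.88, interval -1.10 to -0.65, limma, adjusted p = 9.40e-06).

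CDKN1B, on chromosome 12 (chr12:12838432-12875303, plus strand), had 42.3, 45.6 and 43.3 eRPKM in siCtrl and 30.1, 29.9 and 31.4 with OHT. The libraries of each group lay close together and the groups were well apart, but its fall was the smallest of the 5, to 69.6% of control (-0.51, interval -0.59 to -0.44, limma, adjusted p = 5.20e-08). Its value was near the fold threshold: without siCtrl 48 h replicate 2 it was -0.48, and with values centred on the median of each library it was also -0.48, neither of them past 0.5.

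p21 was not called in the same comparison. CDKN1A was at 77.8 ± 1.59 eRPKM (SD, n = 3) in siCtrl and 85.7 ± 2.6 (n = 3) with OHT at 48 h, a log2 fold change of 0.14 (limma, adjusted p = 0.0166) that is short of the fold threshold.

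At 24 h fewer members passed the thresholds. CDKN1C, CDKN2B and CDKN2C fell in siCtrl cells, 3 of the 5 members, where 5.1% of all genes were called lower. CDKN1C had 6.63 and 6.33 eRPKM in siCtrl and 4.38 and 4.20 with OHT (-0.54, limma, adjusted p = 0.00654). CDKN2C had 32.3 and 28.8 in siCtrl and 20.9 and 21.4 with OHT (-0.52, limma, adjusted p = 0.0023), and CDKN2B had 1.28 and 1.17 against 0.612 and 0.787 (-0.53, limma, adjusted p = 0.0278). For each of these genes the OHT libraries were below the controls, as they were for 31.5% of all genes. CDKN1B, at 40.9 and 40.7 against 32.2 and 32.9 eRPKM, and CDKN2D, at 7.77 and 6.37 against 4.74 and 5.20, were lower by log2 fold changes of -0.32 and -0.46 with adjusted p of 0.000128 and 0.0273 by limma, short of the fold threshold.

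These 24 h calls rest on few libraries. CDKN2B was not called without siCtrl 24 h replicate 1 (-0.48), siCtrl 24 h replicate 2 (-0.58) or siCtrl OHT 24 h replicate 1 (-0.42), and CDKN2C was not called without siCtrl 24 h replicate 1 (-0.44). CDKN2D was called without siCtrl 24 h replicate 2 (-0.60). CDKN2B was also not called with a pseudocount of 1 (-0.39). With quantile normalization only CDKN2C among the 5 remained called at 24 h, CDKN1C being at -0.46 and CDKN2B at -0.47.

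Whether the fall deepened from 24 to 48 h was tested as the difference of the OHT effects. It was past the thresholds for CDKN2C alone (-0.54, limma, adjusted p = 0.0403), with 1.06% of all genes called lower in this comparison. This call is marginal: it was lost on leaving out 12 of the 18 libraries in turn, with values of -0.62 to -0.45, for example -0.45 without siCtrl 24 h replicate 2 and -0.47 without siCtrl OHT 48 h replicate 2. The differences of CDKN1B (-0.19), CDKN1C (-0.33), CDKN2B (-0.39) and CDKN2D (-0.44) had the same sign and did not pass.

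**Figure D1:**
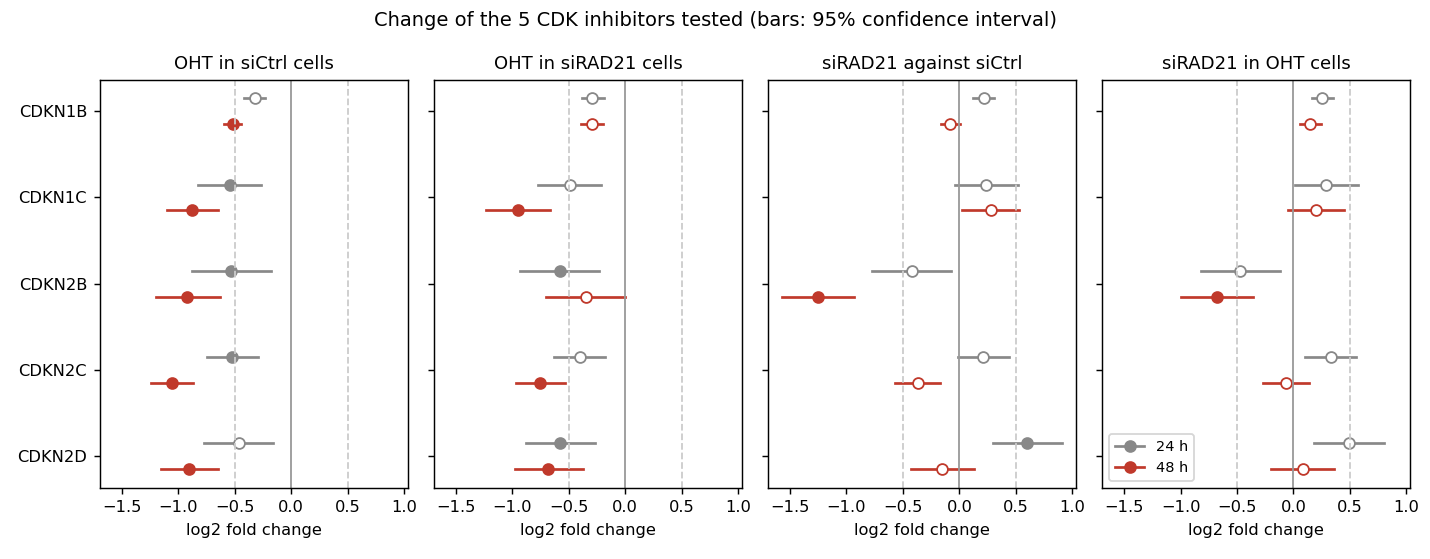
Log2 fold change (horizontal axis) of the 5 members tested in 4 comparisons, at 24 h (grey) and 48 h (red), with 95% confidence intervals and filled points for genes past both thresholds. All points of the OHT panels lie left of 0, and the siRAD21 panel shows CDKN2B at -1.25 at 48 h and CDKN2D at 0.60 at 24 h.

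The next question is whether the falls occurred without RAD21 as well. In siRAD21 cells at 48 h, OHT lowered 3 of the 5 members, CDKN1C, CDKN2C and CDKN2D, with 16.2% of all genes called lower. CDKN1C had 9.35 and 10.1 eRPKM in siRAD21 and 5.21 and 4.38 in siRAD21 OHT cells, 49.4% of the former (-0.95, limma, adjusted p = 2.33e-05). CDKN2C had 19.9 and 21.4 against 13.3 and 10.9 (-0.75, limma, adjusted p = 2.91e-05), and CDKN2D 10.6 and 11.1 against 6.19 and 7.01 (-0.68, limma, adjusted p = 0.000975).

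CDKN1B measured 40.9 and 42.0 eRPKM in siRAD21 and 34.7 and 32.9 in siRAD21 OHT cells, a difference of -0.29 that had an adjusted p of 6.27e-05 by limma and was short of the fold threshold. CDKN2B was already low, at 0.805 and 0.713 eRPKM without and 0.494 and 0.486 with OHT, and its difference of -0.35 did not pass (interval -0.70 to 0.00, limma, adjusted p = 0.0804).

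At 24 h in siRAD21 cells CDKN2B and CDKN2D fell with OHT, 2 of the 5 members, beside 7.62% of all genes called lower. CDKN2B went from 0.734 and 0.856 to 0.410 and 0.318 eRPKM (-0.58, limma, adjusted p = 0.0126) and CDKN2D from 12.0 and 9.97 to 7.37 and 6.99 (-0.58, limma, adjusted p = 0.00614). CDKN1C (-0.49), CDKN2C (-0.40) and CDKN1B (-0.29) were short of the fold threshold. CDKN2B was not called without siRAD21 24 h replicate 2 (-0.52) or siRAD21 OHT 24 h replicate 2 (-0.51), nor with a pseudocount of 1 (-0.40) or with quantile normalization (-0.41), and CDKN2D not without siRAD21 24 h replicate 1 (-0.45). CDKN1C was called without siRAD21 24 h replicate 2 (-0.61) or siRAD21 OHT 24 h replicate 2 (-0.62).

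The difference between the OHT effects in siRAD21 and siCtrl cells, the interaction, decides whether RAD21 silencing altered the response. At 24 h limma called 0 of the 5 members, and 0% of all genes, and 0 members had an unadjusted p below 0.05. Voom on reads recovered from the values also called 0. At 48 h limma called 0 of the 5 members, with 3 at an unadjusted p below 0.05 and 0 called by voom, beside 7.3% of all genes. CDKN1B differed by 0.22 (interval 0.10 to 0.35, limma, adjusted p = 0.0152): its difference with OHT was smaller in siRAD21 cells, by an amount short of the fold threshold. CDKN2B differed by 0.57 (interval 0.12 to 1.02, limma, adjusted p = 0.0769) and CDKN2C by 0.30 (interval 0.01 to 0.59, limma, adjusted p = 0.14). For CDKN2B the call depended on the setting, with 0.66 and a call under quantile normalization and 0.50 and a call with a pseudocount of 1. It was also called without the variance trend (0.57). CDKN1C, at -0.07, and CDKN2D, at 0.23, had intervals from -0.43 to 0.28 and from -0.17 to 0.62.

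The calls for RAD21 silencing by itself had no common direction among these genes. Called or not, at 24 h CDKN1B (0.22), CDKN1C (0.24), CDKN2C (0.21) and CDKN2D (0.60) were higher and CDKN2B (-0.42) lower. At 48 h CDKN1C (0.28) was higher, and CDKN1B (-0.08), CDKN2B (-1.25), CDKN2C (-0.37) and CDKN2D (-0.15) were lower. CDKN2D rose at 24 h, CDKN2B fell at 48 h, and the other 3 members tested were not called at either time. These comparisons share their siCtrl libraries with those of OHT in siCtrl cells.

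CDKN2B had 2.42, 2.18 and 2.91 eRPKM in siCtrl and 0.805 and 0.713 in siRAD21 cells at 48 h. Both silenced libraries were below all controls, at 30.3% of their mean, a log2 fold change of -1.25 (interval -1.57 to -0.93, limma, adjusted p = 6.82e-06). It was the only member called among the 5, where 11.2% of all genes were called lower. The value was -1.59 with a pseudocount of 0.1 and -1.70 by voom, and it stayed between -1.33 and -1.15 when any library was left out. Here too the controls are the group through which the gene was tested. Without a limit on low values the fall was again -1.25 (limma, adjusted p = 7.86e-06), and at a required mean of 5 eRPKM the gene was no longer tested.

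At 24 h CDKN2B had 1.28 and 1.17 eRPKM in siCtrl and 0.734 and 0.856 in siRAD21 cells. The libraries were apart and the log2 fold change of -0.42 did not pass (limma, adjusted p = 0.0765), although voom (-0.62) and quantile normalization (-0.66) called it. The 48 h effect minus the 24 h effect was -0.83 (interval -1.31 to -0.36, limma, adjusted p = 0.0153). Between 24 and 48 h the gene rose in siCtrl cells from a mean of 1.23 to 2.5 eRPKM (0.79, limma, adjusted p = 0.000719), while the siRAD21 means were 0.795 and 0.759. This rise and the difference of the effects both use the siCtrl libraries at 48 h, through which the gene was tested, and are descriptions. The difference of the effects was not called without siCtrl 24 h replicate 2 (-0.78), siRAD21 24 h replicate 2 (-0.76) or siRAD21 48 h replicate 2 (-0.78), nor under quantile normalization (-0.55).

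With OHT present, CDKN2B was again lower with siRAD21. At 48 h it had 1.30, 0.859 and 1.12 eRPKM in siCtrl OHT and 0.494 and 0.486 in siRAD21 OHT cells (-0.68, limma, adjusted p = 0.00194), and it was the only member called, beside 7.74% of all genes called lower. With a pseudocount of 1 the value was -0.48 and short of the threshold. The lowest levels of CDKN2B in the series were in siRAD21 OHT cells at 24 h, at 0.410 and 0.318 eRPKM.

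CDKN2D had 7.77 and 6.37 eRPKM in siCtrl and 12.0 and 9.97 in siRAD21 cells at 24 h, 156% of control. It was the only member that rose (0.60, interval 0.30 to 0.91, limma, adjusted p = 0.00623), with 5.83% of all genes called higher. The call was lost without siCtrl 24 h replicate 2 (0.47) or siRAD21 24 h replicate 1 (0.47). At 48 h it had 10.1, 12.5 and 13.9 eRPKM in siCtrl and 10.6 and 11.1 in siRAD21 cells, groups that overlapped (-0.15, interval -0.43 to 0.13, limma, adjusted p = 0.343).

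In siCtrl cells CDKN2D rose from 24 to 48 h, from a mean of 7.07 to 12.2 eRPKM (0.74, limma, adjusted p = 0.000461). With CDKN2B, 2 of the 5 members rose over this time, with 5.53% of all genes called higher. CDKN2B rose into the group through which it was tested, so this count is a description. For CDKN2D the siRAD21 libraries at 24 h overlapped in level with the siCtrl libraries at 48 h. The siRAD21 effect on CDKN2D at 48 h minus that at 24 h was -0.75 (limma, adjusted p = 0.0127), and it was not called without siCtrl 24 h replicate 2 (-0.62) or siRAD21 24 h replicate 1 (-0.62).

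For CDKN2C, too, the effect of siRAD21 differed between the times. At 24 h it had 32.3 and 28.8 eRPKM in siCtrl and 36.4 and 34.4 in siRAD21 cells (0.21, limma, adjusted p = 0.157). At 48 h it had 24.9, 27.4 and 28.2 against 19.9 and 21.4, with no overlap and an adjusted p of 0.0042 by limma at a log2 fold change of -0.37, short of the fold threshold. The difference of the 2 effects was -0.58 (interval -0.89 to -0.28, limma, adjusted p = 0.00924). CDKN2B, CDKN2C and CDKN2D were thus called lower in this difference, 3 of the 5 members, where 6.86% of all genes were. The CDKN2B value uses the siCtrl libraries at 48 h, through which it was tested, so this count is a description.

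CDKN1B was at 47.2 and 47.8 eRPKM in siRAD21 cells at 24 h, its highest levels, against 40.9 and 40.7 in siCtrl (0.22, limma, adjusted p = 0.0023). At 48 h it was at 40.9 and 42.0 against 42.3, 45.6 and 43.3 (-0.08, limma, adjusted p = 0.123), a difference whose sign turned under quantile normalization (0.01). The change between the times was -0.29 (limma, adjusted p = 0.0031), short of the fold threshold. CDKN1C had its highest levels in siRAD21 cells at 48 h, at 9.35 and 10.1 eRPKM against 8.30, 7.61 and 7.88 in siCtrl. The groups were apart but the log2 fold change of 0.28 did not pass (interval 0.02 to 0.53, limma, adjusted p = 0.0586).

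With OHT present at 24 h, limma called 0 of the 5 members for siRAD21, and 6.47% of all genes were called in either direction. By limma 5 members had an unadjusted p below 0.05 and 3 an adjusted p below 0.05, short of the fold threshold. CDKN1B (0.25), CDKN1C (0.29), CDKN2C (0.33) and CDKN2D (0.49) were higher and CDKN2B (-0.47) lower in siRAD21 OHT cells. Voom called 2 of them, CDKN2B at -0.91 and CDKN2D at 0.53.

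In the order of levels over the 8 groups, CDKN1B was highest in siRAD21 cells at 24 h and lowest in siCtrl OHT cells at 48 h. Its libraries overlapped with those of the next group only between siRAD21 48 h and siCtrl 24 h and between siRAD21 OHT 48 h and siCtrl OHT 24 h. CDKN1C ran from siRAD21 48 h (9.7 eRPKM) to siCtrl OHT 48 h (4.12), and its 4 OHT groups were the lowest. For CDKN2C siRAD21 OHT 48 h (12.1) and siCtrl OHT 48 h (12.7) were lowest and overlapped. For CDKN2D the top groups siCtrl 48 h (12.2), siRAD21 24 h (11) and siRAD21 48 h (10.8) overlapped in turn, and siCtrl OHT 24 h (4.97) was lowest. CDKN2B had siCtrl 48 h (2.5) alone at the top, followed by siCtrl 24 h (1.23) and siCtrl OHT 48 h (1.09), which overlapped.

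Over the 8 group means of log2(eRPKM + 0.5), CDKN1C correlated with CDKN2D at r = 0.908 and with CDKN1B at 0.877, and CDKN1B with CDKN2D at 0.851 and with CDKN2C at 0.832. CDKN2C correlated with CDKN1C at 0.581 and with CDKN2D at 0.482. CDKN2B was the least like the rest, with r between 0.229 and 0.457. These are descriptions over 8 points that share libraries and depth. The genes whose pattern was most like that of a member, by the same measure over 8 groups, were RBM43 for CDKN1B (0.984), COL4A5 for CDKN1C (0.994), DLEU7 for CDKN2B (0.982), DOK1 for CDKN2C (0.996) and WBP5 for CDKN2D (0.98).

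Summed over the 6 members, inhibitor mRNA without p21 was 93.2 ± 4.46 eRPKM in siCtrl (SD, n = 3) and 54.6 ± 2.14 (n = 3) in siCtrl OHT cells at 48 h. It was 83.5 ± 2.6 (n = 2) in siRAD21 cells and 57.9 in siRAD21 OHT cells. The INK4 genes gave 41.6 and 20.1 eRPKM of these sums without and with OHT in siCtrl cells. The level of CDKN1A divided by the sum was 0.835 in siCtrl, 1.57 in siCtrl OHT, 1.31 in siRAD21 and 2 in siRAD21 OHT cells at 48 h. CDKN1A itself was higher with siRAD21 at 48 h, at 110 against 77.8 eRPKM (0.49, limma, adjusted p = 1.22e-06). With OHT it was at 116 against 85.7 (0.43, limma, adjusted p = 7.33e-06). Both differences are short of the fold threshold, but duplicate removal holds them back. CDKN1A was at 37 to 58% of the limit that duplicate removal sets, so its level is understated the most. At 48 h it was at 37, 39.4 and 42.5% of the limit in siCtrl and 57.6 and 58% in siRAD21 libraries. With OHT it was at 42.3, 42.2 and 42.8% in siCtrl and 55.1 and 57.6% in siRAD21 libraries. The ratios to the sum are therefore understated unequally between groups. Whether the differences would pass without this limit is not shown here.

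**Figure D2:**
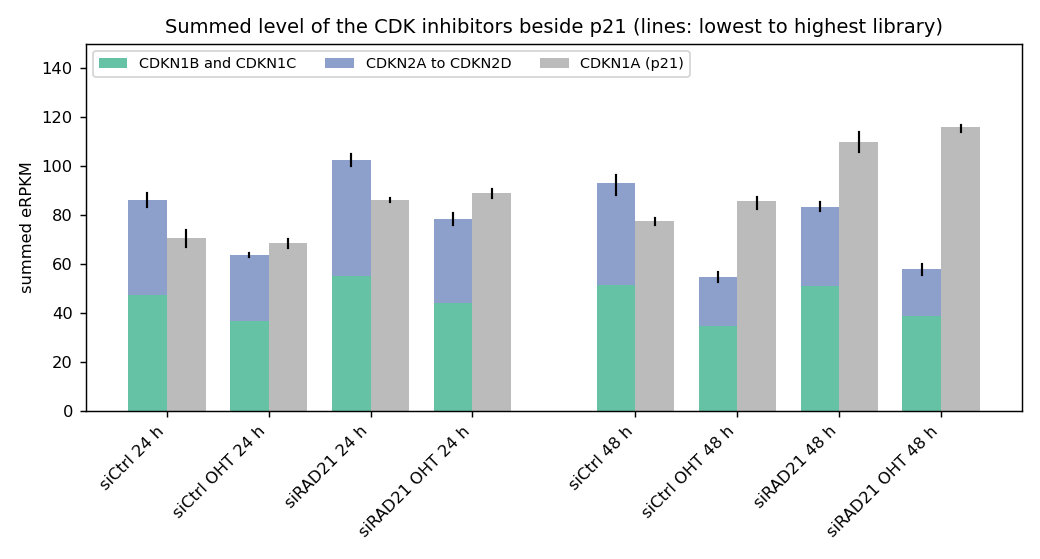
Summed eRPKM (vertical axis, from 0) of CDKN1B with CDKN1C (green) and of the INK4 genes (blue), stacked, beside CDKN1A (grey) as group means, with lines from the lowest to the highest library. At 48 h the stacked bars stand at 93.2 in siCtrl and 54.6 in siCtrl OHT cells, and the CDKN1A bars at 77.8 and 85.7.

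The inhibitors act on kinases, cyclins and, through them, pocket proteins. Of 14 such genes, all tested, limma called 0 with OHT in siCtrl cells at 48 h, where 8 had an unadjusted p below 0.05, voom called 0 and the median log2 fold change was 0.03. Smaller differences with libraries apart went both ways, given after their values were seen. CCND2 went from 81 to 113 eRPKM and CDC25A from 34.8 to 47.6, while RB1 went from 19.3 to 14.5 and RBL2 from 20.6 to 14.6. Removal of duplicates understates differences at high levels such as those of CCND2, and voom used the same reads. With siRAD21 at 48 h, 1 rose and 6 fell, where 12.6% of all genes were called higher and 11.2% lower, at a median of -0.39 against -0.014 for all genes. CCNE2, a cyclin E, went from 20.8 to 9.13 eRPKM (-1.14, limma, adjusted p = 1.15e-07) and RBL1, the pocket protein p107, from 18.7 to 10.5 (-0.81, limma, adjusted p = 6.26e-08). In siRAD21 cells at 48 h 2 of the 14 rose with OHT, where 12.4% of all genes were called higher. They were CDC25A, the phosphatase that activates CDK2, from 18.4 to 41.5 eRPKM (1.16, limma, adjusted p = 4.37e-10) and CCNE1 from 32.7 to 61 (0.89, limma, adjusted p = 1.13e-08). The INK4 targets CDK4 and CDK6 are given after their values were seen. CDK4 had 70.4 ± 3.29 eRPKM (SD, n = 3) in siCtrl and 74.1 ± 2.35 (n = 3) in siCtrl OHT cells at 48 h, and CDK6 had 56.4 ± 1.41 (n = 3) and 54.1 ± 1.09 (n = 3), neither of them called.

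Most control of p27 is at the protein, through the ubiquitin ligase with SKP2 and its partner CKS1B, which RNA levels do not show. Of 9 genes of this list, all tested, SKP2 fell and FBXW7 rose with siRAD21 at 48 h. Of all genes, 11.2% were called lower and 12.6% higher in this comparison, shares near those of the list. SKP2 went from 55.1 ± 1.91 eRPKM (n = 3) in siCtrl to 15.6 ± 0.121 (n = 2) in siRAD21 cells (-1.79, limma, adjusted p = 7.81e-12), and was at 22.1 in siRAD21 OHT cells. FBXW7, whose product marks cyclin E rather than p27 for degradation, went from 19.7 to 33.4 eRPKM (0.75, limma, adjusted p = 2.73e-09). With OHT in siCtrl cells at 48 h 1 of the 9, the scaffold CUL1, was called (0.55, limma, adjusted p = 7.52e-07), and SKP2 differed by 0.02. In siRAD21 cells OHT raised CUL1 (0.67) and UBAC1 (0.62), a subunit of the KPC ligase of p27. With OHT at 48 h, 7.78% of all genes were called higher in siCtrl and 12.4% in siRAD21 cells.

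**Figure D3:**
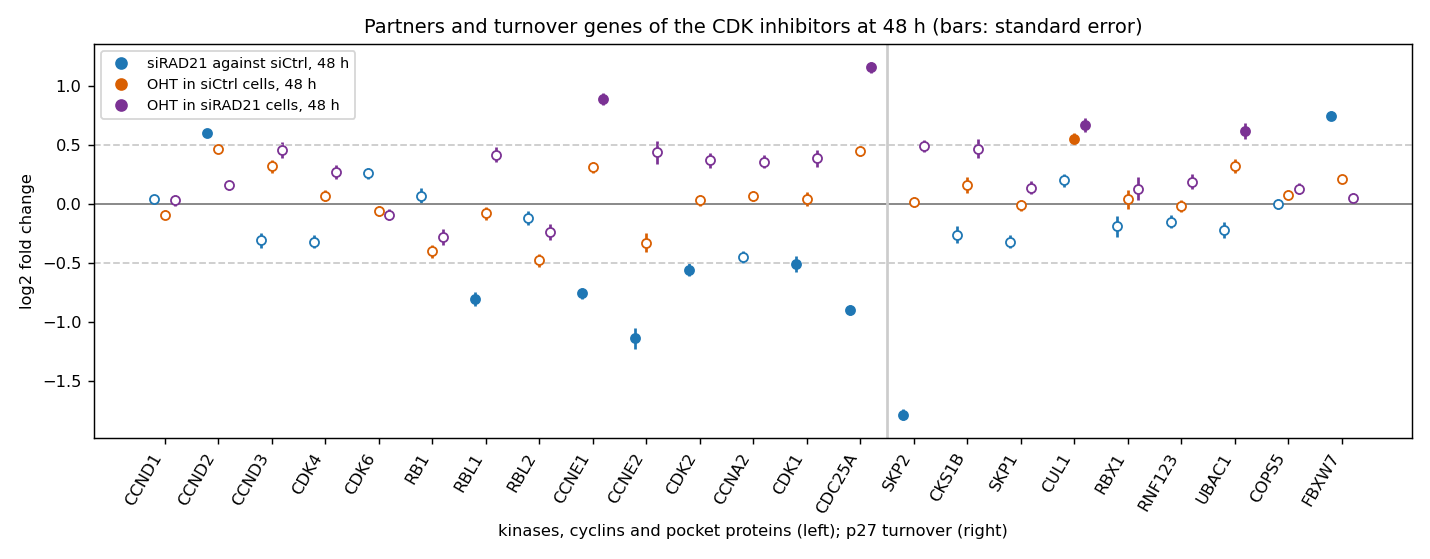
Log2 fold change (vertical axis, bars are standard errors) of the 14 kinases, cyclins and pocket proteins and the 9 p27 turnover genes in 3 comparisons at 48 h, with filled points for genes past both thresholds. SKP2 is at -1.79 with siRAD21, and none of the first 14 genes is filled for OHT in siCtrl cells.

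Among 16 transcription regulators known to act on these genes, all tested, 1 rose and 1 fell with OHT in siCtrl cells at 48 h. Of all genes, 7.78% were called higher and 10.1% lower in this comparison. FOXO4, of the FOXO factors that activate CDKN1B, fell from 7.53 to 4.2 eRPKM (-0.77, limma, adjusted p = 4.10e-06). MEN1, which with KMT2A maintains CDKN1B and CDKN2C expression, rose (0.61, limma, adjusted p = 1.12e-06), and in siRAD21 cells KMT2A fell from 17.4 to 10.8 eRPKM with OHT (-0.66, limma, adjusted p = 0.00183). With siRAD21 at 48 h 1 regulator rose and 2 fell, where 12.6% of all genes were called higher and 11.2% lower. Among those that fell was EZH2, the Polycomb methyltransferase that silences the INK4 locus, from 11.8 to 6.9 eRPKM (-0.74, limma, adjusted p = 3.86e-07).

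Neighbours on the chromosome were called in both directions. Of 15 listed, 13 were tested, and with OHT in siCtrl cells at 48 h 2 rose and 3 fell, at a median of 0.06. Of all genes, 7.78% were called higher and 10.1% lower there. With OHT in siRAD21 cells at 48 h 3 rose and 3 fell, where 12.4% of all genes were called higher and 16.2% lower. Near CDKN1C, SLC22A18 fell with OHT in siRAD21 cells from 8.22 to 2.9 eRPKM (-1.36, limma, adjusted p = 2.02e-05), and PHLDA2, imprinted like CDKN1C, rose in siCtrl cells from 9.2 to 20.4 (1.11, limma, adjusted p = 2.15e-06). Near CDKN2D, SLC44A2 fell in siRAD21 cells from 11 to 5.16 eRPKM (-1.02, limma, adjusted p = 1.55e-06) and KRI1 rose from 12 to 22.3 (0.87, limma, adjusted p = 1.78e-07).

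At the INK4 locus of chromosome 9 the genes differed among themselves. CDKN2B-AS1, the antisense RNA also called ANRIL, had group means of 0.576 to 1.05 eRPKM and was too low to be tested. It was at 0.799 ± 0.196 eRPKM (n = 3) in siCtrl and 1.05 ± 0.205 (n = 2) in siRAD21 cells at 48 h, ranges that overlap, where CDKN2B fell. MTAP and DMRTA1, which flank the locus, are given after their values were seen. With siRAD21 at 48 h DMRTA1 fell from 19.3 to 10.5 eRPKM (-0.85, limma, adjusted p = 2.04e-07), and MTAP was at 18 and 13.9 (-0.36, short of the fold threshold). With OHT in siCtrl cells DMRTA1 fell (-0.68, limma, adjusted p = 8.15e-07) and MTAP differed by 0.19, while in siRAD21 cells OHT raised MTAP (0.57, limma, adjusted p = 4.99e-06).

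**Figure D4:**
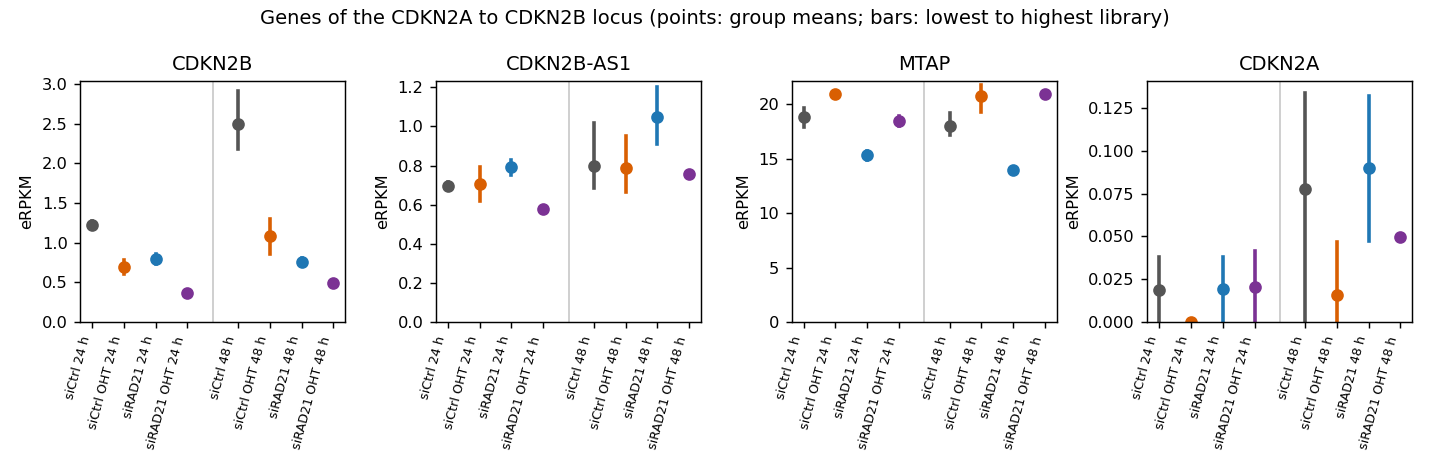
Level in eRPKM (vertical axis, from 0) of CDKN2B, CDKN2B-AS1, MTAP and CDKN2A in the 8 groups, as group means (points) with the lowest and highest library (lines). CDKN2B is highest in siCtrl cells at 48 h at 2.5 eRPKM, while the CDKN2B-AS1 means lie between 0.576 and 1.05 in all groups.

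Markers of lineage moved with OHT beside the inhibitors. The 8 osteoblast markers summed to 130 to 161 eRPKM in siCtrl and 94.3 to 116 in siCtrl OHT libraries at 48 h, and to 167 to 172 in siRAD21 and 104 in siRAD21 OHT libraries. At 24 h they summed to 129 to 144 in siCtrl and 104 to 107 in siCtrl OHT libraries. Of 5 tested, RUNX2, COL1A1 and SPP1 fell with OHT at 48 h with either siRNA, and ALPL and SPARC were not called. ALPL went from 2.9 to 3.55 eRPKM in siCtrl cells, with overlapping libraries, and from 2.31 to 1.62 in siRAD21 cells. COL1A1 spanned 28.1 to 59.1 eRPKM among the siCtrl libraries at 48 h. Of all genes, 10.1% were called lower in siCtrl and 16.2% in siRAD21 cells. The 3 epithelial markers summed to 6.9 to 7.7 eRPKM in siCtrl and 12.4 to 15.4 in siCtrl OHT libraries, through EPCAM, which rose from 4.65 to 11.5 (1.22, limma, adjusted p = 2.51e-06), while KRT5 fell. Their part in the changes of the inhibitors was not tested. MYC mRNA, in which reads of MycER and of the cell's own gene cannot be told apart, was at 52.3 eRPKM in siCtrl and 44.9 in siCtrl OHT cells at 48 h.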

How the data were processed

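RNA was depleted of ribosomal RNA, and libraries that do not mark strand were sequenced as single reads. The authors aligned the reads to hg19 with TopHat2 2.0.8, removed PCR duplicates and counted reads over exons with featureCounts 1.4.5 (SAMtools is also named), per the labels and the submitters' processing notes. The annotation version is not given in the sources used here. The deposited values are eRPKM, RPKM over exons, for 23399 genes. The authors called DEGs with DESeq2 at the same thresholds as here, and their own comparisons were not used.

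The 18 libraries were grouped by their labels. The members and all gene lists were chosen with earlier results of these data known. Genes named from the lists are the up to 4 of each list with the largest called change at 48 h, and exceptions are stated. All other genes of the lists are given by counts. The gene most like a member is the tested gene with the highest Pearson r over the 8 group means of log2(eRPKM + 0.5).

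Tests used R 4.3.3 and limma 3.58.1 with a variance trend on log2(eRPKM + 0.5), for 14993 genes with a mean of at least 1 eRPKM, 13 comparisons and Benjamini-Hochberg adjustment within each, at an adjusted p of 0.05 and a log2 fold change of 0.5. The understatement of fold changes by the pseudocount grows as levels fall. Whole reads were recovered for 22038 of 22040 genes above 0 (99.99%, tolerance 0.02 reads), which gave depths of 9647501 to 12678599 reads per library. Depth limits and floors of 3 reads cover counting error only. The steps were tested on simulated data. Alternatives were pseudocounts of 1 and 0.1, every gene with any reads or only those averaging 5 eRPKM or more, median centring, quantile normalization, only the groups compared, a replicate block, no variance trend, no fold change threshold, averaging the siRAD21 OHT 48 h pair and leaving out each library. Added once the data had been seen were voom, run on the recovered reads, and undoing the removal of duplicates.

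Whether replicate numbers pair libraries across groups is not settled by the data. For siCtrl and siCtrl OHT at 48 h, numbers 1 to 3, the libraries' departures from their group means had correlations of 0.258, 0.13 and 0.157. For number 1 it was 0.168 between siCtrl OHT 48 h and siRAD21 48 h, and -0.169 between siCtrl 24 h and siRAD21 OHT 24 h. Libraries of different numbers were not compared. Gene positions and shared exons came from the GENCODE annotation on GRCh37, promoters from RefSeq (table build GRCh38.p14). Tables and figures were made in Python 3.11.15 with matplotlib 3.10.9, numpy 2.4.6 and pandas 2.3.3. Other experiments of the study were not analysed here.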

Additional observations from a re-analysis of the deposited data

Results flagged for a closer look

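The results named here are differences between 2 effects that passed an adjusted p of 0.05 by limma with Benjamini-Hochberg adjustment. The effect of siRAD21 at 48 h minus that at 24 h was -0.83 for CDKN2B, -0.75 for CDKN2D, -0.58 for CDKN2C and -0.29 for CDKN1B on the log2 scale. The CDKN2B value uses the siCtrl libraries at 48 h, through which the gene was tested, and is a description. CDKN2C also had a stronger OHT effect in siCtrl cells at 48 h than at 24 h (-0.54). CDKN1B was the only member whose OHT effect at 48 h differed between siRAD21 and siCtrl cells at this adjusted p (0.22). The last value and the -0.29 of CDKN1B are short of the fold threshold. Groups of 2 or 3 libraries are too small for a test of single outlying libraries.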

How the results depend on the processing

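With the replicate block, which treats same-numbered libraries as pairs, no call of a member changed. Again 5 of 5 members fell with OHT in siCtrl cells at 48 h, a count that includes CDKN2B and is a description. Averaging the siRAD21 OHT 48 h pair also changed no count of members called. Quantile normalization turned the sign of CDKN1B for siRAD21 at 48 h (0.01) and of the 24 h interaction for CDKN1B (-0.01) and CDKN2B (0.06). It called 2 members for siRAD21 at 24 h, 1 for OHT in siCtrl cells and 1 in siRAD21 cells at 24 h, 1 for siRAD21 in OHT cells at 24 h, 1 in the 48 h interaction and 0 in the change of the OHT effect over time. With no fold change threshold the members called were 2 and 2 for siRAD21 at 24 and 48 h, 5 and 5 for OHT at 24 h with either siRNA, 3 and 2 for siRAD21 in OHT cells at 24 and 48 h and 1 in the 48 h interaction. Voom called 2 for siRAD21 at 24 h and 2 in OHT cells at 24 h, and undoing duplicate removal called 1 in the latter. A pseudocount of 0.1 called 2 there, and a pseudocount of 1 called 1 for OHT in siRAD21 cells at 24 h, 0 for siRAD21 in OHT cells at 48 h and 1 in the 48 h interaction. A mean of at least 5 eRPKM drops CDKN2B from the test, leaving 0 called for siRAD21 at 48 h and 0 in OHT cells at 48 h, 1 for OHT in siRAD21 cells at 24 h and 1 for siCtrl at 48 against 24 h. Without the variance trend 1 was called in the 48 h interaction and 0 in the change of the OHT effect over time, where all genes above 0, median centring and only the groups compared also gave 0. Leaving out 1 library at a time gave 0 to 1 members for siRAD21 at 24 h, 1 to 3 for OHT in siCtrl and 1 to 2 in siRAD21 cells at 24 h, 1 to 3 for the change of the siRAD21 effect and 0 to 1 for the change of the OHT effect. It turned signs only of values that were not called: for siRAD21 in OHT cells at 48 h CDKN2C ranged from -0.21 to 0.07 and CDKN2D from -0.01 to 0.16, in the 24 h interaction CDKN1C from -0.08 to 0.18, CDKN2B from -0.16 to 0.05 and CDKN2D from -0.25 to 0.02, and CDKN1C from -0.19 to 0.04 in the 48 h interaction and -0.08 to 0.16 in the change of the siRAD21 effect. Every other alternative kept the count of members called within 1.5 times. CDKN2A, with at most 3 reads per library, is beyond what this depth can compare.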
